A study of Homo sapiens with 4 samples.

Results

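The genes described here are those of the BCR-ABL1 kinase and the proteins that bind it or pass on its signal: the fusion partners BCR and ABL1, the second ABL kinase ABL2, the adaptors GRB2, GAB2, CRKL and SHC1, the adaptor and ubiquitin ligase CBL, and the transcription factors STAT5A and STAT5B. Every probe set whose platform annotation names 1 of these 10 genes was taken, which gave 15 of the 22277 probe sets on the array. GAB2, GRB2, ABL1, ABL2, CBL and STAT5A have 1 probe set each, BCR, CRKL and SHC1 have 2 each, and STAT5B has 3. RNA was measured in 4 samples of 2 human leukemia cell lines: SUP-B15 with 10 μmol/l STI571 for 16 h, untreated SUP-B15, BV-173 with the same treatment, and untreated BV-173. STI571 is imatinib, an inhibitor of the ABL kinases. Both lines are described by the submitters as Philadelphia chromosome positive acute lymphoblastic leukemia, so all 4 samples, controls included, carry the BCR-ABL1 fusion. Each group held 1 array and each line is a single established culture, so precision is limited by how few arrays there were.

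The Philadelphia chromosome joins the 5' part of BCR to the 3' part of ABL1, and the fusion protein is a tyrosine kinase that is always on. GRB2 binds a phosphorylated tyrosine in the BCR part and, with GAB2, connects the kinase to the RAS and PI3 kinase pathways, while STAT5A and STAT5B are phosphorylated downstream of it. SUP-B15 is known to carry the shorter and BV-173 the longer form of the fusion. The fusion RNA starts at the BCR promoter and ends in ABL1, so a probe set near the 3' end of ABL1 reads ABL1 and BCR-ABL1 together, whereas one near the 3' end of BCR does not read BCR-ABL1. Where the probes of each set lie was not given in the sources used here, and no probe set was taken as specific for the fusion.

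The 250 bases upstream of the RefSeq starts (GRCh38.p14) of BCR and ABL1 are shown because these were the member genes that differed between the lines by test, and because the first of them is also the promoter region of the fusion gene. The BCR window lies at chr22:23180259-23180508 on the + strand and the ABL1 window at chr9:130835004-130835253 on the + strand. The ABL1 start lies inside the span of the gene, which has an earlier first exon. Capitals mark the GC box GGGCGG on either strand; the 2 copies in the ABL1 window adjoin.
BCR: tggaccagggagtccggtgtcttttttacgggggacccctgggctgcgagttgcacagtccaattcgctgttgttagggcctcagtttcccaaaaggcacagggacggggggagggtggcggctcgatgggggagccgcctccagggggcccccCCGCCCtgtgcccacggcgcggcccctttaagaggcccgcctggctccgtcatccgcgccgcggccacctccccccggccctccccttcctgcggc
ABL1: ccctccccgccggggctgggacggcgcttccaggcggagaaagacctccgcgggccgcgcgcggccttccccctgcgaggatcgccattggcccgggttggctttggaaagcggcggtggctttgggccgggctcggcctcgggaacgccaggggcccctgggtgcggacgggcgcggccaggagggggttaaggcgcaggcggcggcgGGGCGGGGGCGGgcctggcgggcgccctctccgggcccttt
The BCR window held 1 GC box and the ABL1 window 2, and 42.6% of 35116 RefSeq promoter windows of this length held at least 1. GC content was 70.8% for BCR and 78.4% for ABL1, against a median of 58.0% over all windows. The STAT motif TTCNNNGAA, the E-box CACGTG and the forkhead motif GTAAACA, searched on both strands, were in neither window; 6.57%, 6.34% and 2.98% of all windows held them. A match is a run of letters and not a shown binding site.

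The arrays had similar RNA quality ratios, their median signals differed most between the untreated arrays of the lines, and 1 array stood apart in 18S ribosomal RNA. The median signal was 106.6 and 115 in STI571-treated and untreated SUP-B15, and 107.6 and 95.5 in STI571-treated and untreated BV-173. Setting a common median shifted the difference between the untreated arrays by a median of −0.25 on the log2 scale, over the probe sets tested. The 3'/5' ratio of the GAPDH control probe sets, which rises as RNA degrades, lay between 1.12 and 1.20. Mean 18S ribosomal RNA control signal was 2817 in STI571-treated BV-173 against 1513 to 1596 on the other arrays, and its part in the results below was not tested. Of 6 B precursor markers measured, 5 (CD79A, CD22, PAX5, DNTT and VPREB1) were above their array's median signal on all arrays, while MME, which encodes CD10, had signals of 4450 and 2047 in STI571-treated and untreated SUP-B15 and of 18.3 and 7.2 in STI571-treated and untreated BV-173. The summed signal of 4 T cell markers was 78.4 to 196.7 that of 4 monocyte markers 63.3 to 230.4, that of 3 granulocyte markers 18.8 to 209.4 and the signal of the erythroid marker HBB 52.6 to 123.3, against 8612 to 45698 for the B precursor markers.

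A probe set was tested if it reached its array's median signal on at least 1 array. This kept 14 of the 15 member probe sets, 9 of which were above the median on every array. The exception was the single ABL2 probe set, which lay below the median on all 4 arrays. CBL was kept through STI571-treated BV-173 alone, where it was highest. Differences are of log2(signal + 24.5), where 24.5 is the 25th percentile over the whole table, and this scale understates the changes of dim probe sets.

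**Figure D1:**
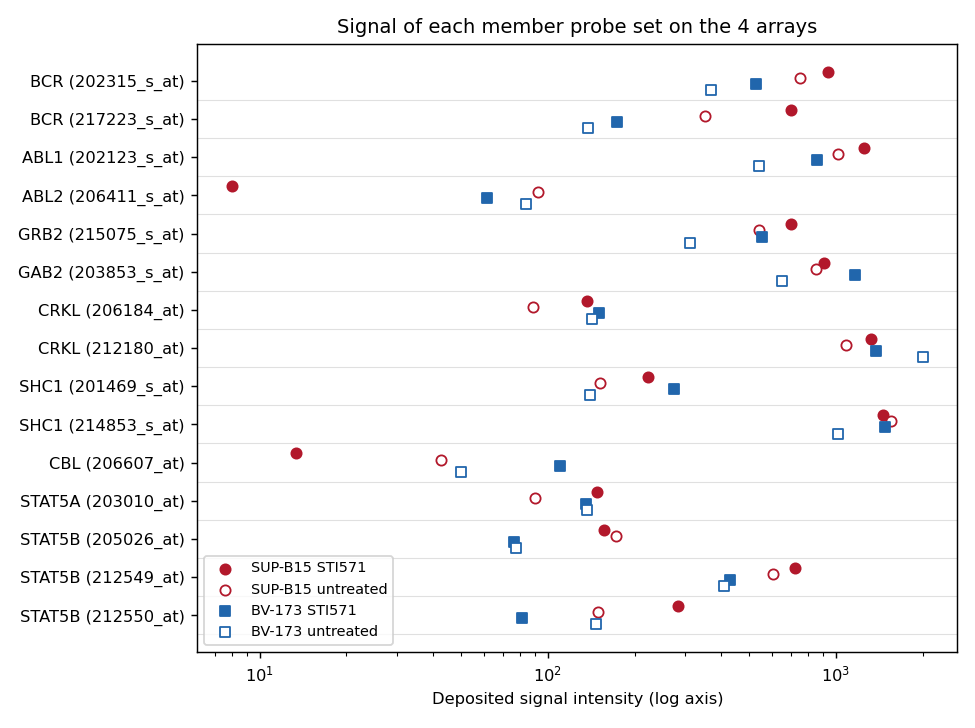
Deposited signal intensity (log axis) of the 15 member probe sets on the 4 arrays, 1 point per array; filled symbols are STI571-treated and open symbols untreated, circles SUP-B15 and squares BV-173. For both BCR probe sets and ABL1 each SUP-B15 point lies to the right of both BV-173 points, and ABL2 and CBL are the dimmest on STI571-treated SUP-B15, at 8.0 and 13.4.

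The first comparison asked whether RNA of the kinase and its adaptors changed when the kinase was inhibited. After STI571, 8 of the 14 tested probe sets (57.1%) had a higher signal in both lines, against a background of 29.0%, 1 had a lower signal in both and 5 went in opposite directions, against a background of 44.7%. These signs depend on scaling. With each array set to a common median, CRKL 206184_at and STAT5B 212549_at had BV-173 responses of −0.08 and −0.09. SHC1 214853_s_at was then higher in both lines, at 0.01 and 0.36. The background was counted as deposited alone. In the test for a shared response 0 of the 14 passed (limma, adjusted p = 0.341 to 0.999). The background for this test was 2.75% of 13408 probe sets called, 1.34% higher and 1.42% lower. At an unadjusted p under 0.05 there were 3 member probe sets, those of ABL1, GRB2 and GAB2, which is 21.4% of the members against 11.5% of all probe sets. The median mean response was 0.29 over the members and 0.02 over all probe sets tested, on the log2 scale. On this scale no tested member changed 2-fold or more in either line. The background was 9.87% in SUP-B15 and 12.1% in BV-173. With only 1 added to each signal, CBL was past 2-fold in both lines, at −1.60 in SUP-B15 and 1.13 in BV-173. With a common median BCR 217223_s_at was past it in SUP-B15, at 1.05. With quantile normalization or with 98 added the count stayed at 0 in each line. The count thus depends on these settings, and the members are not shown to be more stable than other probe sets. In such bulk samples less RNA per cell and fewer cells of a kind cannot be told apart.

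**Figure D2:**
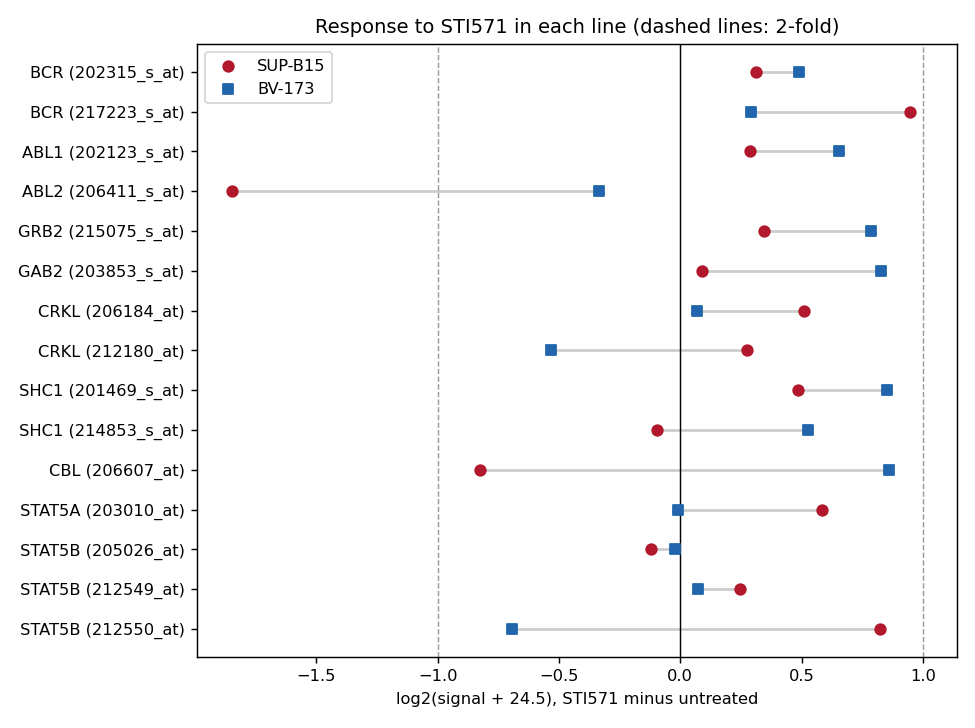
Response to STI571 of each member probe set, as log2(signal + 24.5) of the treated minus the untreated array, with circles for SUP-B15 and squares for BV-173 and 1 array per group; dashed lines mark 2-fold. Both points lie right of 0 for 8 probe sets, and the circle of ABL2, which was not tested, lies beyond the 2-fold line at −1.85.

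Of the fusion partners, BCR encodes a protein with kinase and GTPase-regulating domains whose 5' part gives the fusion its oligomerization domain. Its probe set 202315_s_at had a signal of 936 in STI571-treated and 749.9 in untreated SUP-B15, and of 529 in STI571-treated and 369.5 in untreated BV-173. The other, 217223_s_at, had 697.5 in STI571-treated and 350.0 in untreated SUP-B15, and 174 in STI571-treated and 138 in untreated BV-173. Both probe sets were higher on the treated array of each line, and no BV-173 value reached a SUP-B15 value. The log2 responses were 0.31 in SUP-B15 and 0.49 in BV-173 for 202315_s_at, with a mean of 0.40 (SE 0.25, limma adjusted p = 0.614). For 217223_s_at they were 0.95 and 0.29, with a mean of 0.62 (SE 0.32, limma adjusted p = 0.45), so the probe sets of this gene gave the same direction and different sizes by line.

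ABL1 encodes the kinase that STI571 inhibits. Its probe set 202123_s_at had a signal of 1247 in STI571-treated and 1018 in untreated SUP-B15, and of 862 in STI571-treated and 539 in untreated BV-173. The treated array was the higher of each pair, by log2 0.29 in SUP-B15 and 0.65 in BV-173, and the mean of 0.47 (SE 0.23) was not called (limma adjusted p = 0.40, 95% interval 0.02 to 0.92 before adjustment). ABL2, the related kinase ARG, which STI571 also inhibits, had a signal of 8.0 in STI571-treated and 92.5 in untreated SUP-B15, and of 61.4 in STI571-treated and 83.8 in untreated BV-173. These were below the median of every array, and the log2 differences of −1.85 in SUP-B15 and −0.33 in BV-173 were not tested.

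GRB2 and GAB2 had a higher signal on the treated array of each line, by more in BV-173 than in SUP-B15. GRB2, an adaptor that brings SOS to phosphorylated receptors and to BCR-ABL1, had a signal of 697.1 in STI571-treated and 543 in untreated SUP-B15, and of 553 in STI571-treated and 311 in untreated BV-173. Its log2 responses were 0.35 in SUP-B15 and 0.79 in BV-173, with a mean of 0.57 (SE 0.26, limma adjusted p = 0.341). GAB2, a docking protein that recruits PI3 kinase and SHP2, had 909 in STI571-treated and 852 in untreated SUP-B15, and 1166 in STI571-treated and 647 in untreated BV-173. The SUP-B15 pair differed by log2 0.09 and the BV-173 pair by 0.83, and the mean of 0.46 (SE 0.23) was not called (limma adjusted p = 0.426). Whether these responses differ between the lines could not be tested with 1 array per group.

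SHC1, an adaptor that is phosphorylated by BCR-ABL1 and binds GRB2, has a pair of probe sets that gave different patterns. For 201469_s_at the signal was 222 in STI571-treated and 151.5 in untreated SUP-B15, and 273 in STI571-treated and 140.2 in untreated BV-173, which are log2 responses of 0.49 and 0.85. For 214853_s_at it was 1456 in STI571-treated and 1558 in untreated SUP-B15, and 1480.0 in STI571-treated and 1019 in untreated BV-173, which are −0.10 and 0.53. The treated array was thus higher with both probe sets in BV-173 but with only 1 of them in SUP-B15. The mean responses of 0.67 (SE 0.39) and 0.22 (SE 0.22) were not called (limma adjusted p = 0.547 and 0.831).

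CRKL, an adaptor that is a prominent substrate of BCR-ABL1, also has a pair of probe sets. For 212180_at the signal was 1323 in STI571-treated and 1088 in untreated SUP-B15, and 1378 in STI571-treated and 2004 in untreated BV-173, with log2 responses of 0.28 and −0.53. For 206184_at it was 137 in STI571-treated and 88.9 in untreated SUP-B15, and 150.3 in STI571-treated and 142 in untreated BV-173, with responses of 0.51 and 0.07. The untreated BV-173 array was the highest of the 4 for 212180_at and not for 206184_at. Neither mean response was called, at −0.13 (SE 0.22) and 0.29 (SE 0.49), with limma adjusted p = 0.92 for both. CBL, which binds CRKL and GRB2 and marks kinases for degradation, had a signal of 13.4 in STI571-treated and 42.7 in untreated SUP-B15, and of 110.3 in STI571-treated and 49.8 in untreated BV-173. STI571-treated BV-173 was the 1 array above its median, the log2 responses of −0.83 in SUP-B15 and 0.86 in BV-173 were opposite, and the mean of 0.02 (SE 0.94) was not called (limma adjusted p = 0.999).

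The STAT5 proteins, which are transcription factors activated by cytokine receptors and by BCR-ABL1, are encoded by neighbouring genes. STAT5A had a signal of 148 in STI571-treated and 90.6 in untreated SUP-B15, and of 136 in STI571-treated and 137 in untreated BV-173, with log2 responses of 0.58 and −0.01. The STAT5B probe set 212549_at had 722 in STI571-treated and 605 in untreated SUP-B15, and 430.1 in STI571-treated and 408 in untreated BV-173, with responses of 0.25 and 0.07. For 212550_at it was 283 in STI571-treated and 149 in untreated SUP-B15, and 81.6 in STI571-treated and 147 in untreated BV-173, with responses of 0.82 and −0.69. The third, 205026_at, had 157 in STI571-treated and 172 in untreated SUP-B15, and 76.4 in STI571-treated and 77.8 in untreated BV-173, with responses of −0.12 and −0.02. The 3 probe sets of STAT5B thus gave different values in both lines. The mean responses over the 4 STAT5 probe sets lay between −0.07 and 0.29 and none was called (limma adjusted p = 0.915 to 0.989).

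The second comparison was between the lines, each represented by its treated and its untreated array in the same fit. The 2 arrays of a line differ in treatment and are not replicates. The p-values for the line thus do not measure the spread between cultures of a line. Both BCR probe sets and ABL1 were higher in SUP-B15 than in BV-173 and passed the test, while the other 11 tested probe sets did not. That is 3 of 14 (21.4%) against a background of 25.9% called, 13.5% higher and 12.5% lower in SUP-B15, so the number of calls among the members was close to that of the array as a whole. The BCR difference was 0.89 on the log2 scale for 202315_s_at (SE 0.25, limma adjusted p = 0.0027) and 1.53 for 217223_s_at (SE 0.32, limma adjusted p = 2.22e-05). For ABL1 it was 0.70 (SE 0.23, limma adjusted p = 0.0123). With each array set to a common median the ABL1 call ended (adjusted p = 0.137) and both BCR calls held (adjusted p = 0.0452 and 0.000192); without the intensity trend in the error model all 3 ended (adjusted p = 0.0581 to 0.186).

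**Figure D3:**
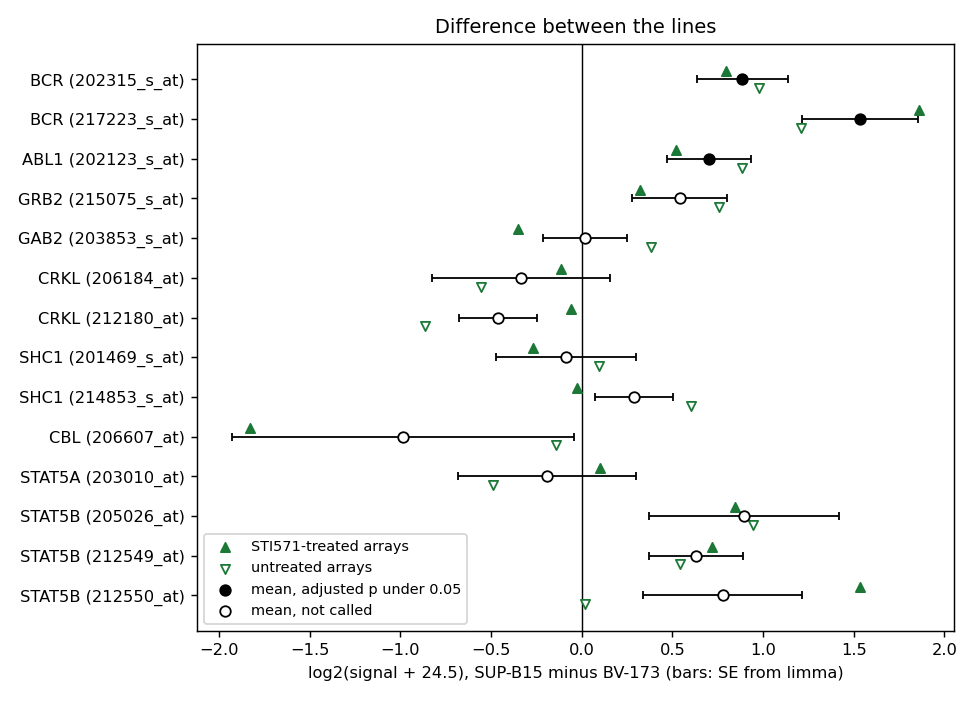
Difference between the lines for the 14 tested probe sets, as log2(signal + 24.5) of SUP-B15 minus BV-173; triangles are the STI571-treated and the untreated pair of arrays, circles their mean with the SE from limma, filled where the adjusted p was under 0.05. The filled circles are BCR at 0.89 and 1.53 and ABL1 at 0.70, and for each of them both triangles lie right of 0.

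The BCR difference was present with and without the inhibitor. All folds given here are of signal + 24.5, which makes them smaller than the folds of the signals. For 202315_s_at SUP-B15 was 1.74-fold higher than BV-173 between the treated arrays and 1.97-fold between the untreated arrays, and for 217223_s_at 3.63-fold and 2.31-fold. ABL1 was 1.43-fold higher between the treated and 1.85-fold between the untreated arrays. Among the untreated arrays 217223_s_at was the only tested member that differed 2-fold or more on this scale, 1 of 14 against a background of 23.7%. With 1 added in place of 24.5 the count was 3, with BCR 202315_s_at (log2 1.02) and STAT5B 205026_at (1.14) also past 2-fold. Between the treated arrays, a comparison added after the values were seen, 217223_s_at was joined by STAT5B 212550_at, 2.89-fold higher in SUP-B15, and by CBL, lower in SUP-B15, against a background of 26.6%. CBL entered the test only through STI571-treated BV-173, and its signal of 13.4 in STI571-treated SUP-B15 lies under the added 24.5, so its difference there is partly selected and has no exact size. All 3 called probe sets carry the maker's mark (_s_at) for probes that match several transcripts, and BCR has truncated copies elsewhere in the genome, so signal from other transcripts could not be separated.

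The members that were not called include differences of similar size with larger errors. STAT5B was higher in SUP-B15 with each of its 3 probe sets, by log2 0.89 for 205026_at (SE 0.53), 0.63 for 212549_at (SE 0.26) and 0.78 for 212550_at (SE 0.44), with limma adjusted p = 0.214, 0.0578 and 0.193. These are means of the treated and the untreated pair of arrays. For 212550_at nearly all of the difference lay between the treated arrays (1.53) and little between the untreated ones (0.02). With quantile normalization the untreated difference of 212550_at was −0.19. Of the 3 probe sets, 205026_at reached the median on the SUP-B15 arrays alone and so was kept through the line where it was high. Its direction adds no support to the other probe sets. GRB2 had a difference of 0.54 (SE 0.26, limma adjusted p = 0.119). CRKL 212180_at lay in the other direction at −0.46 (SE 0.22, limma adjusted p = 0.0993), with nearly all of it between the untreated arrays (−0.87) and little between the treated ones (−0.06). GAB2 gave 0.02 (95% interval −0.44 to 0.47), SHC1 −0.09 and 0.29, STAT5A −0.19, CRKL 206184_at −0.34 and CBL −0.99 (95% interval −2.84 to 0.86), and limma called none of them (adjusted p = 0.356 to 0.971). The GAB2 mean averages 0.38 between the untreated and −0.35 between the treated arrays. GAB2, STAT5A and both SHC1 probe sets changed sign between the 2 pairs of arrays, 4 of 14 against 3773 of all 13408 probe sets. Over the members 7 of 14 (50%) were higher in SUP-B15 both with and without STI571, against a background of 35.2%. These 7 include STAT5B 205026_at, kept through SUP-B15 alone, and 212550_at, with only 0.02 between the untreated arrays. The count is thus partly selected, and no result about the members is drawn from it.

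Each member gene was represented by its brightest tested probe set, and for the 3 of these with the widest range over the arrays the most similar profiles were found by the root mean square difference of the 4 log2 values, each centred on its own mean. For BCR 202315_s_at, with a range of 1.29, the nearest genes were IFT57 (0.0082), HOXB7 (0.022) and SUCO (0.026). For ABL1, with a range of 1.17, they were KAT2B (0.0307), FAM117A (0.0442) and FAM168A (0.0448). For CBL, with a range of 1.83, they were KCTD15 (0.0395), ARHGEF40 (0.0829) and OSBPL1A (0.104). With only 4 arrays such matches are common: 45 genes lay within 0.1 of BCR, 48 of ABL1 and 2 of CBL, of 7916 genes.

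A list of 53 other genes that act next to BCR-ABL1 was read from the same fit, with the brightest probe set for each gene. Of these 40 had a probe set of their own and 36 were kept. After STI571 3 were called higher, PIK3R1, PIK3CD and SOS2, and 1 lower, PTPN6, with 32 not called. Over all 7916 genes 1.40% were called higher and 1.62% lower. The list was chosen with earlier results of these data known, so no result about it as a set is drawn from these shares. PIK3R1, the regulatory subunit of PI3 kinase, had a signal of 2021 in STI571-treated and 1177 in untreated SUP-B15, and of 1059 in STI571-treated and 517 in untreated BV-173. Its log2 responses were 0.77 and 1.0, with a mean of 0.88 (SE 0.22, limma adjusted p = 0.0057). PIK3CD, the catalytic subunit of PI3 kinase found mainly in blood cells, had 7943 in STI571-treated and 4388 in untreated SUP-B15, and 5141 in STI571-treated and 3172 in untreated BV-173, with a mean response of 0.77 (SE 0.20, limma adjusted p = 0.0094). PIK3R1 and PIK3CD were thus higher on the treated array of each line. PIK3CB, another PI3 kinase gene of the list, had responses of 0.25 in SUP-B15 and −0.14 in BV-173 and was not called (limma adjusted p = 0.977).

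SOS2, the exchange factor that GRB2 carries to RAS, had a signal of 1054 in STI571-treated and 544 in untreated SUP-B15, and of 619.5 in STI571-treated and 358 in untreated BV-173. Its mean response was 0.84 (SE 0.25, limma adjusted p = 0.0351). PTPN6, the phosphatase SHP1 that dampens tyrosine kinase signals in blood cells, had 893 in STI571-treated and 1414 in untreated SUP-B15, and 347 in STI571-treated and 859 in untreated BV-173. Its log2 responses were −0.65 in SUP-B15 and −1.25 in BV-173, and the mean of −0.95 passed the test (SE 0.24, limma adjusted p = 0.0047). When a gene's probe sets were averaged, the calls of PIK3CD (adjusted p = 0.328) and SOS2 (0.797) ended, and with a common median those of PIK3R1 (0.107) and SOS2 (0.200), the SOS2 call also with quantile normalization (0.0689); without the intensity trend all 4 ended (0.616 to 0.648). The median response of the 36 genes was 0.04, against 0.02 for all genes.

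Between the lines 13 of the 36 were called, 9 higher and 4 lower in SUP-B15, against 14.3% and 14.1% of all genes. For the same reason no result about the list is drawn from this count, as the list was chosen with earlier results known. PRKCB, protein kinase C beta, had signals of 3366 and 4552 in STI571-treated and untreated SUP-B15, against 21.5 and 58.0 in STI571-treated and untreated BV-173, a difference of 6.0 (SE 0.27, limma adjusted p = 1.16e-105). FYN, a kinase of the SRC family, had 4544 and 3280 in STI571-treated and untreated SUP-B15, against 71.4 and 47.3 in STI571-treated and untreated BV-173. YES1, of the same family, ran the other way, with 1.2 and 2.2 in SUP-B15 and 393.5 and 359 in BV-173 (treated and untreated). FYN and YES1 differed by 5.55 (SE 0.26) and −3.93 (SE 0.67), with limma adjusted p = 2.38e-98 and 1.09e-07. The SUP-B15 signals of YES1 lie far under the added 24.5, so the size of its difference is set by that value: it was −7.15 when 1 was added and −2.25 when 98 was added. PRKCB and FYN were below the median on both BV-173 arrays and YES1 on both SUP-B15 arrays. Each was thus kept through the line where it was high. The PRKCB difference was 6.75 when 1 was added and 4.88 when 98 was added, and that of FYN was 6.03 and 4.66. Without the intensity trend the limma adjusted p was 0.0068 for both PRKCB and FYN. PLCG1, a phospholipase C (1.58, SE 0.45), JAK1, a kinase of cytokine receptors (1.43, SE 0.22), and PTK2B, a focal adhesion family kinase (1.16, SE 0.30), were higher in SUP-B15, as were PIK3R1 (1.03) and PTPN6 (1.0). The other genes called lower in SUP-B15, named after their values were seen, were the focal adhesion kinase PTK2 (−0.99, SE 0.21), the SRC family kinase LYN (−0.96, SE 0.26) and the phospholipase C gene PLCG2 (−0.80, SE 0.21). The 4 genes called for STI571 were also called for the line, each higher in SUP-B15, with PIK3CD at 0.55 and SOS2 at 0.66 (limma adjusted p = 0.0313 and 0.0372). The line calls of PIK3CD and SOS2 ended with a common median (adjusted p = 0.170 and 0.193), with averaged probe sets (0.172 and 0.394) and without the treatment term (0.247 and 0.233). That of SOS2 also ended with quantile normalization (0.061) and with no filter (0.0503), that of PLCG1 with averaged probe sets (0.0604), and those of PIK3R1 (0.0609) and PTPN6 (0.0894) without the treatment term. Without the intensity trend 3 of the 13 line calls were left.

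**Figure D4:**
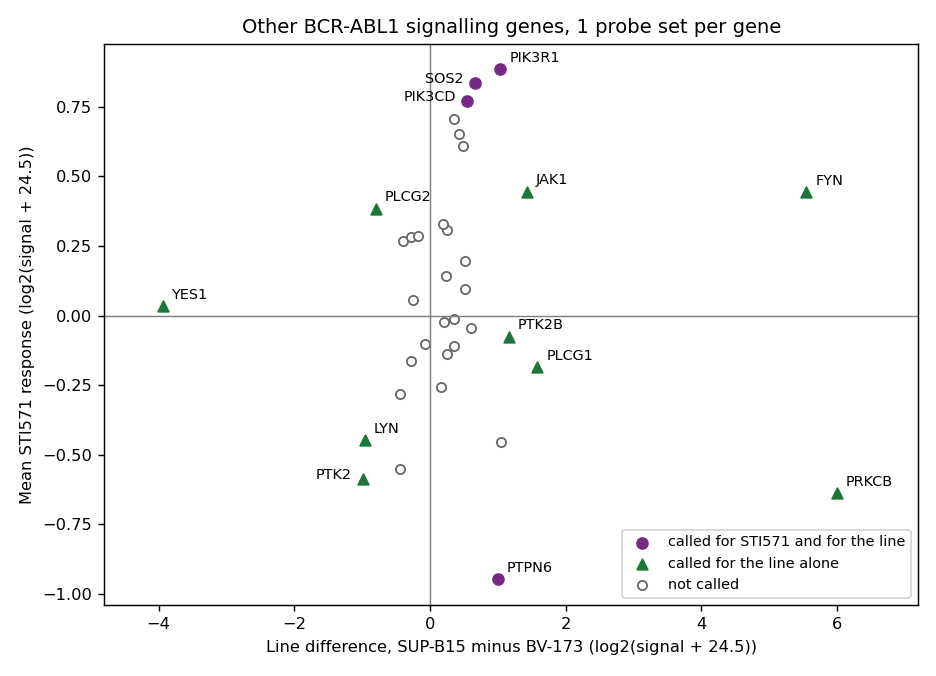
The 36 other BCR-ABL1 signalling genes, 1 point per gene, with the line difference (SUP-B15 minus BV-173) on the horizontal and the mean STI571 response on the vertical axis, both of log2(signal + 24.5) from limma over 4 arrays. PIK3R1, SOS2 and PIK3CD lie at the top, between 0.77 and 0.88, PTPN6 lies at the bottom at −0.95, and FYN, PRKCB and YES1 lie far from the rest along the horizontal axis.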

How the data were processed

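RNA was labelled and hybridised by standard Affymetrix methods, per the labels' protocols, and the submitters' processing notes name GCOS 1.3. The authors deposited a linear signal intensity for each probe set, scaled array by array (trimmed mean 500.2 on each); how probes were summarised is not given in the sources used here, and neither is the target of the scaling. Detection calls were not used. Probe sets were named where the platform annotation gave 1 symbol (19064 of 22277), and 0 of those with several symbols listed a member. RefSeq (GRCh38.p14) gave names and promoters, and has no CBL promoter entry here.

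Signals were taken as log2(signal + 24.5), and 13408 probe sets that reached the 50th percentile of at least 1 array were tested. One limma fit (limma 3.58.1, R 4.3.3) with cell line and treatment as terms, an intensity trend and two-sided Benjamini-Hochberg adjustment at 0.05 over all 13408 gave both comparisons, the cell line pairing the treated and untreated arrays as labelled. It has 1 residual degree of freedom and an infinite prior, so each SE is the trend's value at that brightness and not a probe set's own spread. Nothing says that the arrays come from separate cultures. Values of single lines have no test. Tested on simulated data, the STI571 fit found 44.1% of 2-fold changes, so an uncalled probe set is not shown to be unchanged. Of its calls there 12.8% were unchanged probe sets, above the adjusted threshold of 0.05. Calls for STI571 can thus be false more often than that threshold says.

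The members, lists and motifs were chosen with earlier results of these data known. All member probe sets are named, as are the called genes of the signalling list (at most 8 by size for each comparison, with 3 more added after their values were seen) and 3 profile neighbours for each of the 3 member genes of widest range, taking a gene's brightest probe set. Alternatives varied scaling, pseudocount, filter, probe set summary, error model, model terms and fold threshold.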

Additional observations from a re-analysis of the deposited data

Results flagged for a closer look

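The responses of the lines had opposite signs for 5 of the 14 tested member probe sets (35.7%), against 44.7% of all 13408 probe sets. None of these differences was tested, since each line has 1 array per group. Some of the signs rest on small values. The BV-173 response of STAT5A was −0.01. The SUP-B15 response of SHC1 214853_s_at was −0.10, and 0.01 with a common median. CBL was kept only through STI571-treated BV-173, its highest array at 110.3, and that selection favours a positive BV-173 response. Its signal was 13.4 in STI571-treated SUP-B15, under the added 24.5, and 42.7 in untreated SUP-B15. The opposite signs of CBL are thus partly selected, and the difference between its responses has no exact size. The SUP-B15 response minus the BV-173 response, on the log2 scale, was −1.69 for CBL, 1.51 for STAT5B 212550_at, 0.81 for CRKL 212180_at, −0.62 for SHC1 214853_s_at and 0.59 for STAT5A. Among the other signalling genes named, it was 1.23 for PLCG1, −0.50 for PTK2B and −0.18 for YES1, and those differences were likewise not tested.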

How the results depend on the processing

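No member probe set was called for STI571 under any of the 12 alternatives run for that test. The 3 member calls between the lines became 0 with gene-specific probe sets alone, which leave out all 3 by construction, and 0 without the intensity trend (adjusted p = 0.121 and 0.0581 for BCR, 0.186 for ABL1); dropping the treatment term ended the ABL1 call (0.118). With a common median, which moved the median of all probe sets by −0.12 for the line difference, −0.25 between the untreated arrays and −0.16 for the BV-173 response, 41.7% of line calls were higher in SUP-B15, against 51.9% as deposited. Member counts past 2-fold were 0 in each line. SUP-B15 had 1 with a common median (BCR 217223_s_at, 1.05), 1 with a pseudocount of 1 (CBL, −1.60) and 1 with no filter (ABL2, −1.85). BV-173 had 1 with a pseudocount of 1 (CBL, 1.13). Between the untreated arrays the count of 1 became 3 when 1 was added to each signal and 0 when 98 was added. At 1.5-fold the counts were 3 in SUP-B15, 6 in BV-173 and 7 between the untreated arrays, and at 3-fold 0 between the untreated arrays. Uncalled means that changed sign were GAB2 between the lines (−0.11, common median), and for STI571 CBL (−0.0084 with a common median, −0.24 with a pseudocount of 1), CRKL (0.081, mean of probe sets), PTK2B (0.12, mean of probe sets) and YES1 (−0.042, −0.20 and −0.40 with a common median, a pseudocount of 1 and the mean of probe sets). The 369 probe sets called for STI571 became 235 with a common median, 148 with gene-specific probe sets, 239 and 116 genes with the brightest or the mean probe set, and 0 without the intensity trend (1024 at an unadjusted p under 0.05) or with no replicate block, that is without the cell line term (131 at an unadjusted p under 0.05). The 3477 called for the line became 1613 with gene-specific probe sets, 2273 and 2059 genes with the brightest or the mean probe set, 968 without the trend and 2187 without the treatment term. Of the other signalling genes, 4 were called for STI571, 2 with a common median or the mean of probe sets and 0 without the trend or with no replicate block; 13 were called for the line and 3 without the trend. The cause of these changes was not tested. With no detection calls, signal over background is unknown for the dim ABL2 and CBL probe sets.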
